A study of Mus musculus with 12 samples.

Results

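The genes described here are 35 mouse genes of the unfolded protein response and the integrated stress response, chosen by symbol out of the 55487 genes in each deposited table. Ddit3 has a second gene entry under the same symbol with no reads, so the 35 symbols matched 36 entries, and every one of the 35 had reads and a test in each comparison with vehicle. By role they are 4 stress sensors, 10 factors and regulators of the integrated stress response, 7 enzymes of amino acid and one-carbon synthesis, 3 amino acid transporters, 7 genes of folding in the endoplasmic reticulum (ER) and 4 of ER-associated degradation.

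RNA with polyA tails was sequenced from LSK cells, the Lin-, Sca-1+, Kit+ marrow fraction with the stem cells and multipotent progenitors, after a bone marrow transplant (BMT) in mice. The 4 groups were palbociclib plus ruxolitinib (the combination), palbociclib alone, ruxolitinib alone and vehicle, with 3 libraries each. Palbociclib inhibits the cyclin-dependent kinases CDK4 and CDK6, and ruxolitinib inhibits the kinases JAK1 and JAK2. All groups, vehicle included, share the strain label C57BL/6 and a genotype given as homozygous JAK2V617F, the activating JAK2 mutation of myeloproliferative neoplasms, so no group stands for unmutated cells. Doses, treatment times, ages and how the mutation was introduced are not given in the labels. Nor do they say whether a group's libraries are separate animals, and the p-values therefore measure a spread between libraries. That spread was modelled with a shared value per gene in the authors' fit of 24 libraries, 12 of them not analysed here. It is therefore not the spread of the libraries described here alone.

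The unfolded protein response is started by 3 sensors in the ER membrane: PERK (Eif2ak3), IRE1 (Ern1) and ATF6. PERK, GCN2 (Eif2ak4, which senses uncharged tRNA) and other kinases phosphorylate the initiation factor eIF2, which slows translation in general while the mRNA of the transcription factor ATF4 is translated more, and ATF4 then drives genes of amino acid synthesis, amino acid uptake and stress. IRE1 splices Xbp1 mRNA, and XBP1 and ATF6 drive chaperones and the degradation of misfolded ER proteins. In blood stem cells these pathways are known for their part in surviving stress and in keeping protein synthesis low.

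The promoter stretches below are shown because ATF4 is known to act through the first of 3 short motifs, and ATF6 and XBP1 through ER stress elements. They are the 10 promoters of the 35 genes that hold one of the 3, and most of the genes hold none. They are from RefSeq's promoter sequences on GRCm38.p6, each read 5′ to 3′ on the gene's own strand. Motif letters are in capitals. Both strands were searched in the 250 bases before each start site for the C/EBP-ATF response element (CARE, TGATGNAA), the ER stress response element (ERSE, CCAAT and CCACG with 9 bases between) and the element ERSE-II (ATTGG and CCACG with 1 base between). The 3 motifs were chosen after results of these data were known, and 32 of the 35 genes had a promoter sequence in the table, which had none for Atf6, Manf and Slc7a5.
Asns CARE (chr6:7693210-7693252, minus strand): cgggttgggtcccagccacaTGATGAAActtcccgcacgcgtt
Chac1 CARE (chr2:119351029-119351076, plus strand): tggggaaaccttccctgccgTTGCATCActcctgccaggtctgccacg
Pycr1 CARE (chr11:120643824-120643871, minus strand): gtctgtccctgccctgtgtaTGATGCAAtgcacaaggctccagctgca
Slc7a11 CARE in both directions (chr3:50443633-50443699, minus strand): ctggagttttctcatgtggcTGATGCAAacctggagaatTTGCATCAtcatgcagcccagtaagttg
Herpud1 CARE and ERSE-II (chr8:94386297-94386407, plus strand): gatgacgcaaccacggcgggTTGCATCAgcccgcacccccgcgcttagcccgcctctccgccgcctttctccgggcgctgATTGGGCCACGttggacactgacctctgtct
Calr ERSE (chr8:84847055-84847113, minus strand): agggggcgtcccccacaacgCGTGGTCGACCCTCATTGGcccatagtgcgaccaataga
Canx ERSE (chr11:50325780-50325838, minus strand): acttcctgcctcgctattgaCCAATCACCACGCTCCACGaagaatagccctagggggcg
Creld2 ERSE (chr15:88819500-88819558, plus strand): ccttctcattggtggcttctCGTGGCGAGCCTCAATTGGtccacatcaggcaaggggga
Pdia6 ERSE (chr12:17266471-17266529, plus strand): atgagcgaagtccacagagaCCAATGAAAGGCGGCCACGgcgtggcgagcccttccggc
Syvn1 ERSE (chr19:6046512-6046570, plus strand): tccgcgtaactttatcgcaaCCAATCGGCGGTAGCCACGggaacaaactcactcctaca

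CARE was found for 5 of the 32 genes, which have 35 promoters in the table, and in 3.45% of all 32851 promoters. ERSE was found for 5 of the 32 genes and in 0.113% of all promoters. ERSE-II was found for 1 of the 32 genes and in 0.0304% of all promoters. The members are counted by gene and the background by promoter, so the shares are not in the same unit. The motif nearest to its start site was the CARE of Asns, at 23 to 16 bases before it, and the farthest was that of Chac1, at 193 to 186 bases. No motif overlapped another, and a match describes only these letters in this window.

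Values per library were not used here. The tables give, for each gene, a log2 fold change of each drug group over vehicle with its standard error, and from these a modelled level of each group was solved in normalised reads (read counts divided by a size factor per library), with a 95% interval that covers counting error and the modelled spread. The reads in genes implied for the 12 libraries ran from 18.2 M to 44.7 M reads, and both the shallowest and the deepest library belonged to the combination. The sort label was checked with 9 LSK markers: Kit, the receptor of the gate, had modelled levels of 19878 normalised reads in the combination, 15506 in palbociclib, 14933 in ruxolitinib and 14277 in vehicle. Ly6a, which encodes Sca-1, had 3557 normalised reads in the combination, 2102 in palbociclib, 1165 in ruxolitinib and 1004 in vehicle. Of 6 T and NK cell markers, Nkg7 had 3168 normalised reads in the combination, 3590.0 in palbociclib, 2865 in ruxolitinib and 3227 in vehicle, Cd4, Cd3g and Ncr1 had at most 45.4 in any group, and Cd3e and Cd8a were too low for a modelled level. The plasma cell markers described further on held 6.27% of normalised reads in the combination, in cells whose sort is meant to leave mature lineage cells out.

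Across the 35 genes, the drugs given singly changed few and the combination changed 18 at an adjusted p under 0.05 in the authors' deposited tables (DESeq2's Wald test with Benjamini-Hochberg adjustment). Palbociclib changed 3, with Ddit4 higher and Ern1 and Atf6 lower, against 8.63% of all 15448 genes tested (4.98% higher, 3.64% lower). Ruxolitinib changed 1, Atf6, which was lower, against 2.96% of all genes tested (0.932% higher, 2.03% lower). The shares among the 35, 8.57% and 2.86%, are near that background, which was 9.74% and 3.45% among genes with a base mean (the mean normalised count over the authors' fit) of at least 50.

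The combination changed 18 of the 35 (51.4%), 11 higher and 7 lower, against 23.0% of 19228 genes tested (12.9% higher, 10.2% lower) and 30.2% of the 12085 with a base mean of at least 50. The members did not move as one list. Their median log2 fold change in the authors' deposited tables was -0.03 in the combination, -0.12 in palbociclib and -0.19 in ruxolitinib, beside medians of 0.06, 0.02 and 0.01 over all genes tested. The transcription factors, stress regulators and ER degradation genes held most of the rises, and the amino acid genes held 4 of the 7 falls.

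**Figure D1:**
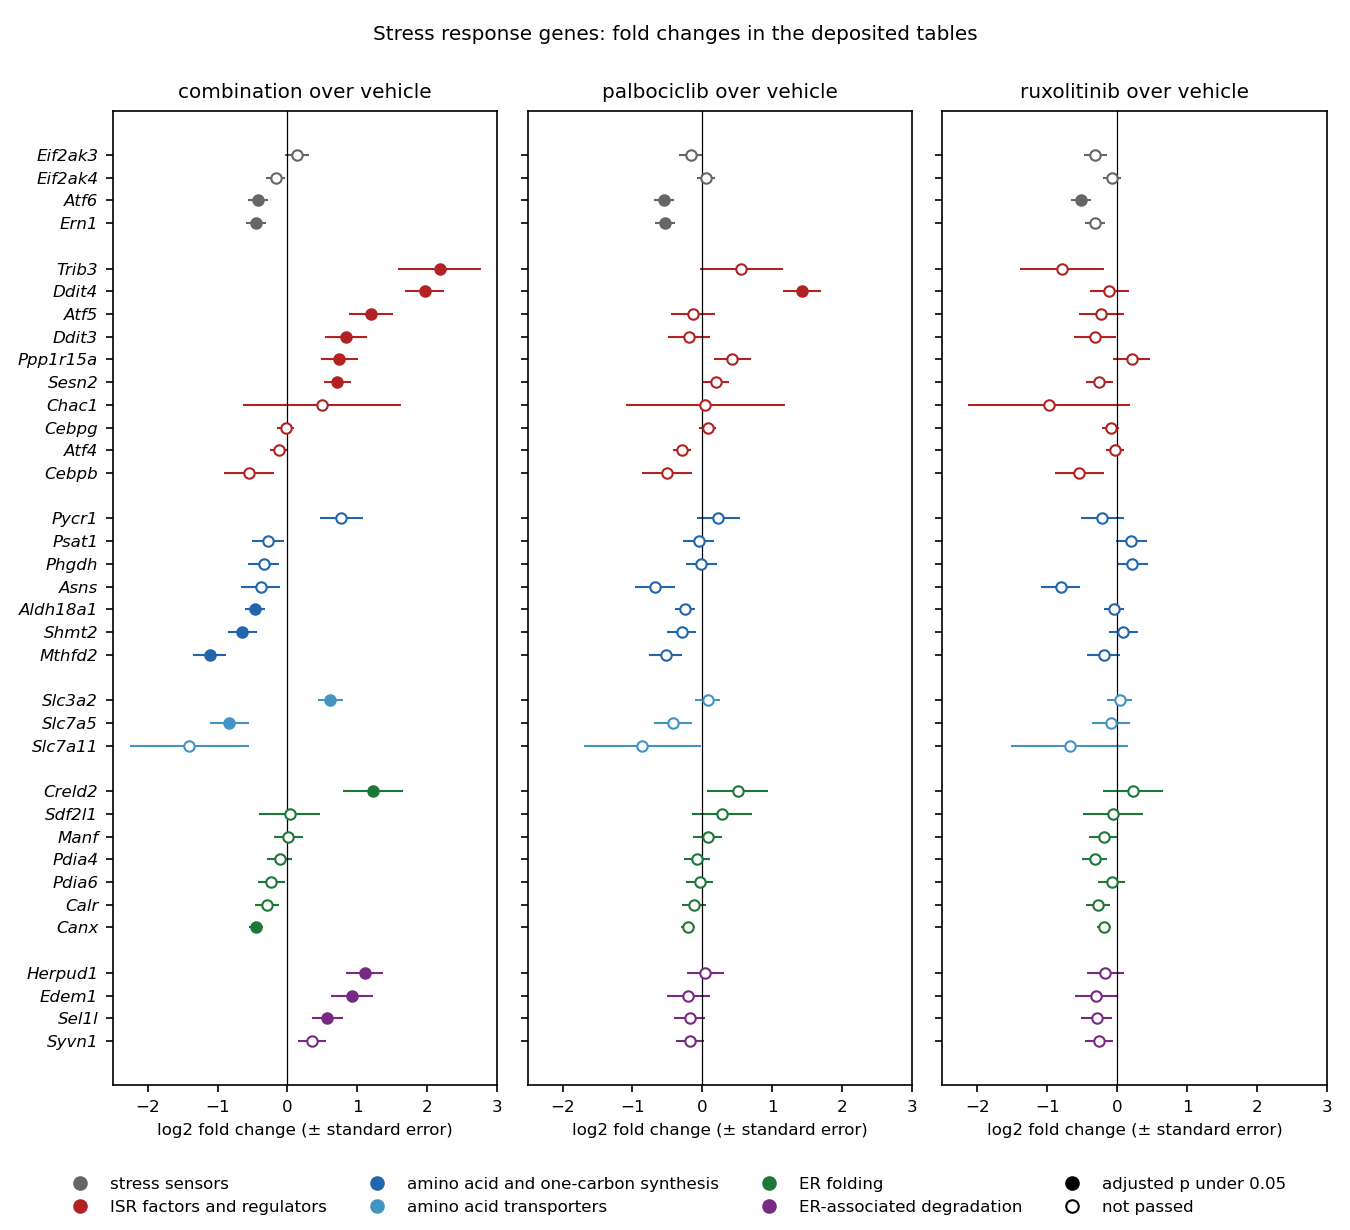
Log2 fold change over vehicle (x axis, with its standard error as a bar) of the 35 genes in the authors' deposited tables, one panel per drug group, 3 libraries a group. Filled points passed at an adjusted p under 0.05: 18 in the combination, 3 in palbociclib and 1 in ruxolitinib.

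Of the 4 stress sensors, 2 fell in the combination, 2 in palbociclib and 1 in ruxolitinib, and none rose. Among all genes tested, 10.2%, 3.64% and 2.03% fell in that order. The median log2 fold changes of the sensors in the authors' deposited tables were -0.29, -0.35 and -0.32 in that order. Atf6 (chr1:170704674-170867771 on GRCm38) had modelled levels of 1879 normalised reads in the combination, 1721 in palbociclib and 1747 in ruxolitinib, against 2508 in vehicle. In the authors' deposited tables it fell in each drug group, by 0.42 ± 0.14 in the combination (log2, standard error, adjusted p = 0.020), 0.54 ± 0.14 in palbociclib (adjusted p = 0.0048) and 0.52 ± 0.14 in ruxolitinib (adjusted p = 0.016). It was the only one of the 35 that passed in all 3 comparisons, and these share the vehicle libraries. Ern1 had 3116 normalised reads in the combination, 2938 in palbociclib and 3406 in ruxolitinib, against 4256 in vehicle. It fell by 0.45 ± 0.14 in the combination (adjusted p = 0.013) and by 0.53 ± 0.14 in palbociclib (adjusted p = 0.0068) in the authors' deposited tables. The log2 fold change of Ern1 in ruxolitinib there was -0.32 ± 0.14 (adjusted p = 0.28). The eIF2 kinases Eif2ak3 and Eif2ak4 passed in no comparison with vehicle, with log2 fold changes from -0.31 to 0.14. Exons of Eif2ak3 share 8.05% of their length with a transcript on the other strand, and the sources used here do not say whether the counting used strand.

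Atf4 itself did not pass in any comparison. Its modelled level was 4050 normalised reads in the combination (95% interval 3577 to 4586), 3600.3 in palbociclib (3180.0 to 4076), 4282 in ruxolitinib (3783 to 4846) and 4391 in vehicle (3880 to 4969). All 4 intervals overlap. In the authors' deposited tables its log2 fold change was -0.12 ± 0.13 in the combination (adjusted p = 0.55), -0.29 ± 0.13 in palbociclib (adjusted p = 0.15) and -0.04 ± 0.13 in ruxolitinib (adjusted p = 0.96). ATF4 is controlled mainly at translation, which mRNA levels do not measure. Cebpg, which encodes a partner of ATF4 in binding DNA, had log2 fold changes from -0.09 to 0.08. Cebpb had log2 fold changes of -0.55, -0.51 and -0.54 in the combination, palbociclib and ruxolitinib with adjusted p from 0.26 to 0.58, and 20.7% of its exon is shared with Tmem189 on the other strand.

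Of the 10 factors and regulators of the integrated stress response, 6 rose in the combination and 4 did not pass, 1 rose in palbociclib, and 0 passed in ruxolitinib, where 0 had even an unadjusted p under 0.05. Among all genes tested, 12.9% rose in the combination, 4.98% in palbociclib and 0.932% in ruxolitinib. The median log2 fold changes of the 10 in the authors' deposited tables were 0.73 in the combination, 0.06 in palbociclib and -0.24 in ruxolitinib. Among the 5 with a base mean of at least 500 the median in the combination was -0.026, so the direction of the list's median rests on its less abundant genes. This was the list with the most rises in number.

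Ddit4 (chr10:59949669-59951834), which encodes REDD1, an inhibitor of the growth kinase complex mTORC1, rose most clearly. Its modelled level was 1778 normalised reads in the combination (95% interval 1366 to 2314) and 1226 in palbociclib (941 to 1597), while ruxolitinib had 421 (322 to 550) and vehicle 456 (349 to 595). The combination and palbociclib intervals lie above those of ruxolitinib and vehicle. In the authors' deposited tables Ddit4 rose by 1.96 ± 0.28 in the combination (log2, 3.90-fold, adjusted p = 5.6e-10) and by 1.43 ± 0.28 in palbociclib (2.69-fold, adjusted p = 4.2e-05). In ruxolitinib its log2 fold change was -0.12 ± 0.28 (adjusted p = 0.93).

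Trib3, which encodes a pseudokinase induced by ATF4 and CHOP, had 292 normalised reads in the combination (95% interval 167 to 513), 95.3 in palbociclib (53.9 to 168), 37.3 in ruxolitinib (20.7 to 67.1) and 64.6 in vehicle (36.5 to 115). Its combination interval lies above those of ruxolitinib and vehicle and just overlaps the palbociclib one. It rose by 2.18 ± 0.59 in the combination in the authors' deposited table (4.53-fold, adjusted p = 0.0028). This was the largest log2 fold change among the 35 in any comparison with vehicle, with the widest error of those that passed.

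Atf5 (chr7:44812256-44816658), a transcription factor related to ATF4 and likewise controlled at translation, had 614 normalised reads in the combination (454 to 832), 244 in palbociclib (179 to 331), 229 in ruxolitinib (168 to 311) and 267 in vehicle (197 to 363). Only the combination interval stands apart from the other 3. Atf5 rose by 1.20 ± 0.32 in the combination in the authors' deposited table (2.30-fold, adjusted p = 0.0022), while the adjusted p was 0.87 in each single-drug table. Ddit3, which encodes the factor CHOP, had 420.2 normalised reads in the combination (316 to 559), 207 in palbociclib (155 to 276), 189 in ruxolitinib (141 to 252) and 235 in vehicle (177 to 314). It rose by 0.84 ± 0.30 in the combination in the authors' deposited table (adjusted p = 0.027). Exons of Ddit3 share 6.13% of their length with the second Ddit3 entry and 3.97% with Mars on the other strand. Those of Atf5 share 4.11% with Nup62 and 4.11% with Il4i1, both on the other strand.

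Sesn2, which encodes a stress-induced inhibitor of mTORC1, had 642 normalised reads in the combination, 448 in palbociclib, 328 in ruxolitinib and 391 in vehicle. It rose by 0.71 ± 0.19 in the combination in the authors' deposited table (adjusted p = 0.0026). Sesn2 was lowest in ruxolitinib and highest in the combination. Ppp1r15a, which encodes GADD34, the phosphatase subunit that reverses eIF2 phosphorylation, had 669 normalised reads in the combination, 538 in palbociclib, 462 in ruxolitinib and 399.5 in vehicle. It rose by 0.74 ± 0.26 in the combination in the authors' deposited table (adjusted p = 0.025). Chac1, a glutathione-degrading enzyme of the same program, had a base mean of only 10.05 normalised reads. Its log2 fold changes in the authors' deposited tables, 0.49 ± 1.13 in the combination, 0.05 ± 1.13 in palbociclib and -0.97 ± 1.16 in ruxolitinib, leave changes of several-fold in either direction undetectable at this depth.

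**Figure D2:**
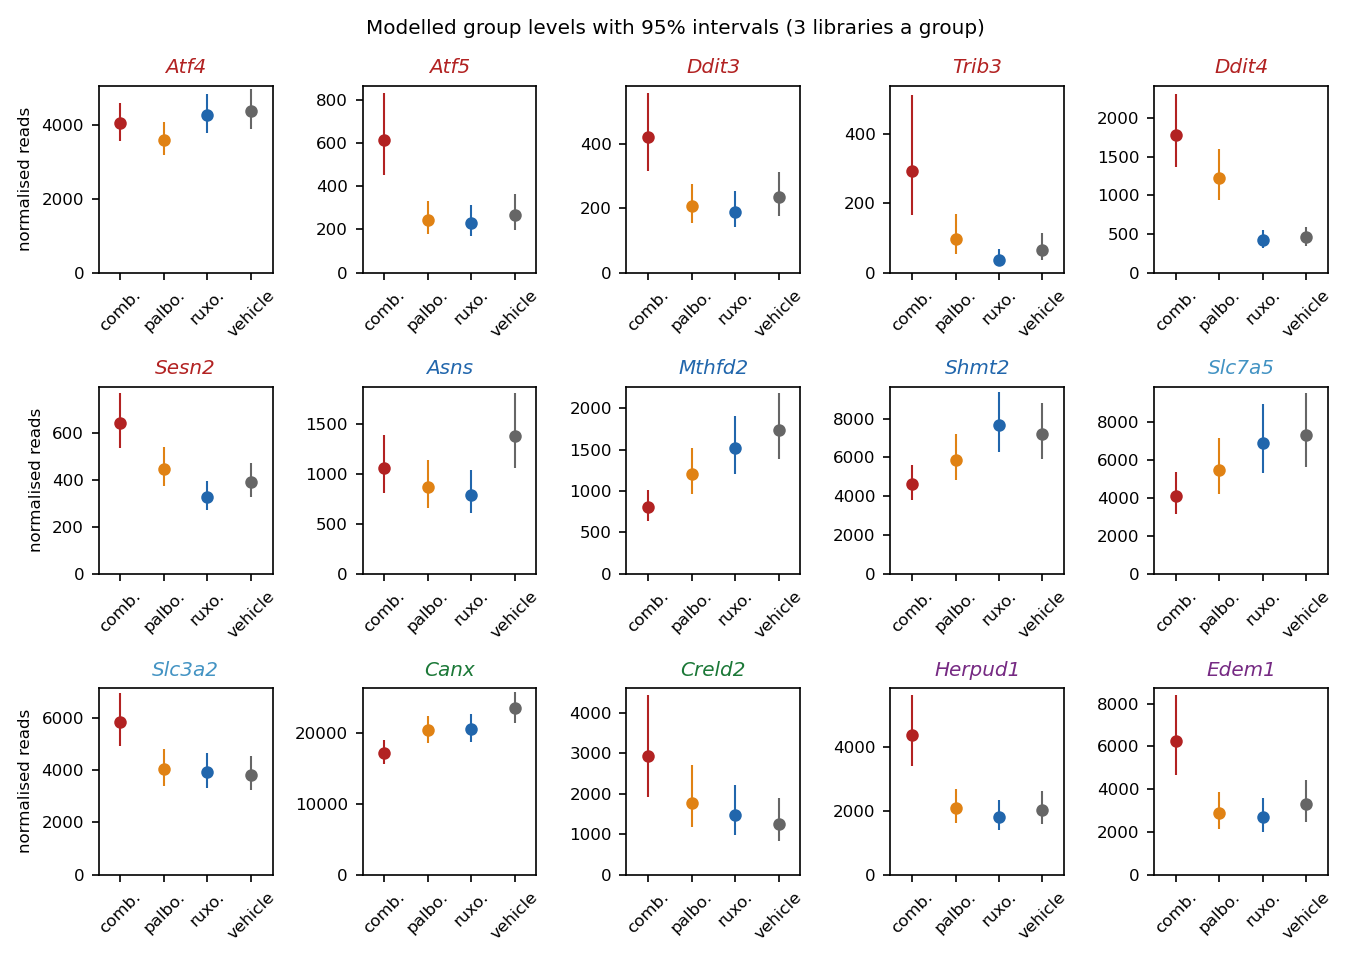
Modelled level in normalised reads (y axis, from 0) of 15 of the 35 genes in the combination, palbociclib, ruxolitinib and vehicle, as points with 95% intervals (3 libraries a group). Atf5, Ddit3, Herpud1 and Edem1 are high in the combination alone, Ddit4 is high in the combination and in palbociclib, and Mthfd2 is lowest in the combination.

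The amino acid and one-carbon enzymes, textbook targets of ATF4, went the other way or did not pass. In the combination 0 of 7 rose, 3 fell and 4 did not pass, with a median log2 fold change of -0.39 in the authors' deposited table. Among all genes tested there, 12.9% rose and 10.2% fell. In palbociclib and ruxolitinib 0 of 7 passed, with medians of -0.25 and -0.04, and 2 and 1 of them had an unadjusted p under 0.05.

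Mthfd2 (chr6:83305691-83325908), the mitochondrial folate enzyme of one-carbon metabolism, had 803 normalised reads in the combination (95% interval 638 to 1011), 1208 in palbociclib (961 to 1518), 1520.2 in ruxolitinib (1210.0 to 1910.0) and 1737 in vehicle (1383 to 2182). The combination interval lies below those of ruxolitinib and vehicle. It fell by 1.11 ± 0.24 in the combination in the authors' deposited table (adjusted p = 0.00012). Shmt2, which makes glycine from serine in mitochondria, had 4611 normalised reads in the combination, 5890 in palbociclib, 7667 in ruxolitinib and 7228 in vehicle. It fell by 0.65 ± 0.21 in the combination in the authors' deposited table (adjusted p = 0.013). As with Mthfd2, the palbociclib level lay between the combination and ruxolitinib levels. Aldh18a1, the first enzyme of proline synthesis from glutamate, had 2670.4 normalised reads in the combination, 3111 in palbociclib, 3585 in ruxolitinib and 3692 in vehicle. It fell in the authors' deposited table by 0.47 ± 0.14 in the combination (adjusted p = 0.0077).

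The 4 enzymes that did not pass in the combination differed in sign. Pycr1, which completes proline synthesis, had 289 normalised reads in the combination, 199 in palbociclib, 146 in ruxolitinib and 169.6 in vehicle, with a log2 fold change of 0.77 ± 0.31 in the combination in the authors' deposited table (adjusted p = 0.052). That value crosses the threshold when the adjustment runs over genes with a base mean of at least 50 (adjusted p = 0.039). Asns, asparagine synthetase, whose promoter holds the CARE nearest to a start site above, had 1063 normalised reads in the combination (811 to 1393), 869 in palbociclib (663 to 1139), 793 in ruxolitinib (605 to 1040) and 1388 in vehicle (1060 to 1817). Its log2 fold change in the authors' deposited tables was -0.39 ± 0.28 in the combination (adjusted p = 0.34), -0.68 ± 0.28 in palbociclib (adjusted p = 0.11) and -0.81 ± 0.28 in ruxolitinib (adjusted p = 0.097). The serine synthesis enzymes Phgdh and Psat1 had log2 fold changes of -0.34 ± 0.22 and -0.28 ± 0.22 in the combination, with adjusted p of 0.26 and 0.39 there. Per kilobase of exon, Phgdh was the highest of the 7 in each group, at 3311 normalised reads per kilobase in the combination, 4156 in palbociclib, 4878 in ruxolitinib and 4188 in vehicle.

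The 3 transporters split in the combination, where 1 rose, 1 fell and 1 did not pass, and 0 of 3 passed in palbociclib or ruxolitinib, also at an unadjusted p under 0.05. Among all genes tested, 12.9% rose and 10.2% fell in the combination. SLC7A5 (LAT1) and SLC7A11 (the cystine importer xCT) each pair with SLC3A2, the heavy chain that brings them to the cell surface. Slc3a2 (chr19:8706882-8723369) had 5875 normalised reads in the combination (4949 to 6974), 4055 in palbociclib (3415 to 4815), 3935 in ruxolitinib (3314 to 4672) and 3834 in vehicle (3229 to 4552). The combination interval lies above the other 3. It rose by 0.62 ± 0.18 in the combination in the authors' deposited table (adjusted p = 0.0055). Slc7a5 had 4114 normalised reads in the combination (3157 to 5361), 5484 in palbociclib (4209 to 7144), 6888 in ruxolitinib (5288 to 8973) and 7314 in vehicle (5616 to 9527). It fell by 0.83 ± 0.28 in the combination in the authors' deposited table (adjusted p = 0.017), so the heavy chain and its light chain changed in opposite directions. Slc7a11 had a base mean of 20.7 normalised reads and a log2 fold change of -1.40 ± 0.85 in the combination there (adjusted p = 0.23).

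Of the 7 ER folding genes, 1 rose, 1 fell and 5 did not pass in the combination, and 0 passed in palbociclib or in ruxolitinib, where 1 and 0 had an unadjusted p under 0.05. The 28.6% that passed in the combination is near the 30.2% of genes with a base mean of at least 50. The median log2 fold changes in the authors' deposited tables were -0.11 in the combination, -0.04 in palbociclib and -0.19 in ruxolitinib. Creld2, a secreted ER stress protein with disulfide isomerase activity, had 2927 normalised reads in the combination (1930.1 to 4439), 1781 in palbociclib (1174 to 2701), 1468 in ruxolitinib (968 to 2228) and 1253 in vehicle (826 to 1901). It rose by 1.22 ± 0.43 in the combination in the authors' deposited table (2.34-fold, adjusted p = 0.026). Its combination interval lies above that of vehicle and overlaps the other two. Canx, the membrane-bound lectin chaperone calnexin, had 17248 normalised reads in the combination (15675 to 18978), 20414 in palbociclib (18555 to 22458), 20609 in ruxolitinib (18733 to 22673) and 23509 in vehicle (21371 to 25861). In the authors' deposited table it fell by 0.45 ± 0.10 in the combination (adjusted p = 0.00021), with the smallest error among the 35.

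Calr, the soluble partner of calnexin, and the disulfide isomerases Pdia4 and Pdia6 had log2 fold changes of -0.29 ± 0.17, -0.11 ± 0.18 and -0.23 ± 0.19 in the combination in the authors' deposited table, none of which passed. Manf and Sdf2l1, which work with the chaperone BiP, were at 0.01 ± 0.21 and 0.03 ± 0.43 there. Calr had the highest level per length of the 35 in each group, at 11415 normalised reads per kilobase in the combination, 12867 in palbociclib, 11505 in ruxolitinib and 13943 in vehicle. The 5 genes with ERSE in the promoter stretches above differed in the combination: Creld2 rose, Canx fell, and Calr, Pdia6 and Syvn1 did not pass.

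ER-associated degradation, which pulls misfolded proteins out of the ER to the proteasome, held 3 rises among 4 genes in the combination. Among all genes tested there, 12.9% rose. The median log2 fold change of the 4 in the authors' deposited tables was 0.75 in the combination, -0.18 in palbociclib and -0.28 in ruxolitinib. Summed, their modelled levels were 0.0581% of normalised reads in the combination, 0.0339% in palbociclib, 0.0305% in ruxolitinib and 0.0357% in vehicle. Herpud1 (chr8:94386438-94395377), an ER membrane protein that organises the degradation complex and whose promoter stretch holds both CARE and ERSE-II, had 4382 normalised reads in the combination (3404 to 5641), 2095 in palbociclib (1627 to 2699), 1807 in ruxolitinib (1403 to 2328) and 2035 in vehicle (1580.3 to 2620.4). Its combination interval lies above the other 3. It rose by 1.11 ± 0.26 in the combination in the authors' deposited table (2.15-fold, adjusted p = 0.00059).

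Edem1, a lectin that hands misfolded glycoproteins to degradation, had 6269 normalised reads in the combination (4676 to 8406), 2878 in palbociclib (2145 to 3860), 2682 in ruxolitinib (1999 to 3597) and 3300 in vehicle (2460.5 to 4425). It rose by 0.93 ± 0.31 in the combination in the authors' deposited table (adjusted p = 0.016). Its combination interval lies above the other 3. Sel1l, the adaptor of the ubiquitin ligase HRD1, had 5735 normalised reads in the combination (4639 to 7091), 3402 in palbociclib (2751 to 4208), 3156 in ruxolitinib (2552 to 3903) and 3857 in vehicle (3119.5 to 4769). Its rise of 0.57 ± 0.22 in the combination in the authors' deposited table (adjusted p = 0.043) does not pass when the adjustment runs over every gene with a p (adjusted p = 0.077). Syvn1, which encodes HRD1 itself, had a log2 fold change of 0.35 ± 0.20 in the combination in the authors' deposited table (adjusted p = 0.19).

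Side by side, with no test of the difference, stand the 10 amino acid genes (enzymes and transporters) and the 11 ER genes (folding and degradation). In the combination 1 of 10 amino acid genes rose and 4 fell, with a median log2 fold change of -0.43, while 4 of 11 ER genes rose and 1 fell, with a median of 0.03 in the authors' deposited table. The shares that passed were 50% and 45.5%, beside 23.0% of all genes tested and 30.2% of those with a base mean of at least 50. Among all genes tested, 12.9% rose and 10.2% fell. Of the 4 ER rises 3 were degradation genes, and one of these, Sel1l, is lost when the adjustment runs over every gene with a p. In palbociclib and in ruxolitinib none of either set passed, with 2 and 1 amino acid genes and 1 and 0 ER genes at an unadjusted p under 0.05. The medians of the amino acid genes were -0.27 in palbociclib and -0.06 in ruxolitinib, and those of the ER genes were -0.07 and -0.19. The 3 tables share the vehicle libraries, so these values are not independent of each other.

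Plasma cells, which secrete antibody and have a large ER, are marked by a list of 17 genes whose level moved with these groups. Lineage depletion and the Lin- gate of the sort are meant to leave out mature lineage cells. In the combination 14 of the 17 rose, in palbociclib 3 rose, and in ruxolitinib 1 fell. Beside these stand 12.9% of all genes tested that rose in the combination, 4.98% that rose in palbociclib and 2.03% that fell in ruxolitinib. Summed, the list held 6.27% of normalised reads in the combination, 0.337% in palbociclib, 0.0193% in ruxolitinib and 0.0636% in vehicle. Jchain, the joining chain of secreted antibody, had 252586 normalised reads in the combination, 11105 in palbociclib, 373 in ruxolitinib and 1264 in vehicle. Mzb1, a chaperone of antibody assembly, had 336 normalised reads in the combination, 31.9 in palbociclib, 0.669 in ruxolitinib and 6.39 in vehicle. For both, the combination was the highest and ruxolitinib the lowest. In bulk RNA, fewer or more cells of a type and less or more RNA per cell cannot be told apart, and the part of these markers in the rises of Herpud1, Edem1, Sel1l, Creld2, Atf5, Trib3 and the other risen genes was not tested. Xbp1, which drives both ER degradation genes and plasma cell formation, had 8867 normalised reads in the combination, 3314 in palbociclib, 2551 in ruxolitinib and 3148 in vehicle.

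As background for the marker counts that follow, 12.9% of all genes tested rose and 10.2% fell in the combination. In palbociclib 4.98% rose and 3.64% fell, and in ruxolitinib 0.932% rose and 2.03% fell. Of 8 cycling genes, 6 fell in the combination, 3 in palbociclib and 0 in ruxolitinib, where 0 had an unadjusted p under 0.05. Their summed level was 0.152% of normalised reads in the combination, 0.197% in palbociclib, 0.302% in ruxolitinib and 0.314% in vehicle. Granulocyte markers summed to 0.0529%, 0.122% and 0.120% in the combination, palbociclib and ruxolitinib, against 0.371% in vehicle. Of their 12 genes, 5 rose and 2 fell in the combination, and of the 11 tested in the other groups 6 rose and 2 fell in palbociclib and 3 fell in ruxolitinib. Their median log2 fold change was 3.66 in the combination, 4.92 in palbociclib and -1.61 in ruxolitinib in the authors' deposited tables. The lower sums in the combination and palbociclib therefore do not follow most of these markers. Of 8 monocyte and dendritic cell markers, 6 fell in each drug group and 1 rose in the combination. Of 11 erythroid markers, 5 rose and 2 fell in the combination, 3 fell in palbociclib and 4 fell in ruxolitinib. Of the 9 LSK markers, 6 rose in the combination, 4 in palbociclib and 1 in ruxolitinib. Of the 6 T and NK cell markers, 4 were tested in the combination, where 1 rose and 1 fell, and 2 in each single-drug group, where 0 passed, also at an unadjusted p under 0.05. The part of these lists in the falls of Mthfd2, Shmt2, Aldh18a1, Slc7a5, Canx, Ern1 and Atf6 was not tested.

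**Figure D3:**
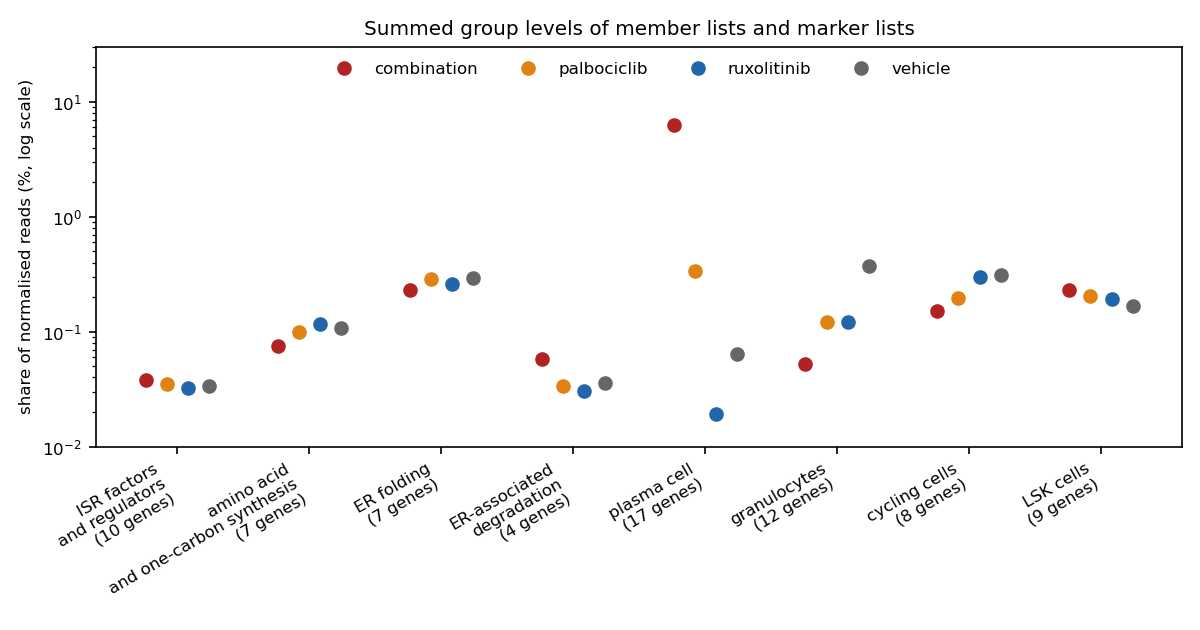
Summed modelled level as a share of normalised reads (y axis, log scale, percent) of 4 lists among the 35 genes and 4 marker lists, one point for each of the combination, palbociclib, ruxolitinib and vehicle. The plasma cell list stands at 6.27% in the combination against 0.0636% in vehicle, while the ER degradation genes stand at 0.0581% against 0.0357%.

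Differences between the drug groups ask what each drug adds to the other. They were taken from the deposited fold changes with group variances solved from the deposited errors (2-sided normal test, Benjamini-Hochberg over 12077 genes with a base mean of at least 50). This left 33 of the 35 genes, without Chac1 and Slc7a11. On simulated data these tests made more false calls than their nominal rate. Against ruxolitinib the combination differed for 18 of 33, 12 higher and 6 lower, beside 23.2% of all genes tested (12.5% higher, 10.7% lower). Against palbociclib it differed for 5 of 33, all higher, beside 2.19% (1.44% higher, 0.745% lower). Palbociclib differed from ruxolitinib for 1 of 33, beside 1.37% (1.15% higher, 0.215% lower). With the deposited errors taken as independent, which counts the shared vehicle libraries in both errors, these 3 counts were 4, 0 and 0, and the 4 were Ddit4, Sesn2, Trib3 and Herpud1. By the solved variances, 16 of the 17 plasma cell markers were higher in the combination than in ruxolitinib and 7 higher than in palbociclib. Between the single drugs, 6 were higher in palbociclib. The part of these markers in the differences of the 35 genes was not tested.

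Added to ruxolitinib, palbociclib went with higher levels of all 4 ER degradation genes and of 5 of 9 stress factors. The log2 difference of the combination over ruxolitinib was 2.97 ± 0.60 for Trib3 (adjusted p = 4.8e-05), 2.08 ± 0.28 for Ddit4 (adjusted p = 4.6e-11) and 1.43 ± 0.32 for Atf5 (adjusted p = 0.00030). It was 1.28 ± 0.26 for Herpud1 (adjusted p = 7.6e-05), 1.23 ± 0.31 for Edem1 (adjusted p = 0.0013), 0.86 ± 0.22 for Sel1l (adjusted p = 0.0018) and 0.61 ± 0.20 for Syvn1 (adjusted p = 0.015). Syvn1, Pycr1 (0.98 ± 0.31, adjusted p = 0.012) and Eif2ak3 (0.45 ± 0.17, adjusted p = 0.041) passed here and not against vehicle. The 6 that were lower were Mthfd2, Shmt2, Aldh18a1, Phgdh, Slc7a5 and Canx, with log2 differences from -0.92 to -0.26. Phgdh, which did not pass against vehicle, had a log2 difference of -0.56 ± 0.22 (adjusted p = 0.047), and the call is lost among genes with a base mean of at least 10 (adjusted p = 0.050).

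Added to palbociclib, ruxolitinib went with higher levels of Atf5 (log2 difference 1.33 ± 0.32, adjusted p = 0.0087), Edem1 (1.12 ± 0.31, adjusted p = 0.026), Herpud1 (1.06 ± 0.26, adjusted p = 0.011), Ddit3 (1.02 ± 0.30, adjusted p = 0.041) and Sel1l (0.75 ± 0.22, adjusted p = 0.042). None of the amino acid genes differed between the combination and palbociclib, where 2 of 9 had an unadjusted p under 0.05. Mthfd2 had a log2 difference of -0.59 ± 0.24 (95% interval -1.06 to -0.12, adjusted p = 0.14), and Slc3a2 one of 0.53 ± 0.18 (adjusted p = 0.074). Ddit4, high in both groups with palbociclib, had a log2 difference of 0.54 ± 0.27 (95% interval -0.00 to 1.07, adjusted p = 0.25). It was the one gene that differed between palbociclib and ruxolitinib alone, higher in palbociclib by 1.54 ± 0.28 (log2, adjusted p = 1.6e-05).

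On the log2 scale, the combination departed from the sum of the single-drug changes for 5 of 33 genes, beside 2.79% of all genes tested (1.91% higher, 0.878% lower), and in each case the combination was above the sum. None of the 5 passed with the deposited errors taken as independent (adjusted p from 0.267 to 0.312), and Atf6 did not pass among genes with a base mean of at least 10 (adjusted p = 0.053). The log2 departure was 1.56 ± 0.45 for Atf5 (adjusted p = 0.031), 1.42 ± 0.43 for Edem1 (adjusted p = 0.042), 1.24 ± 0.37 for Herpud1 (adjusted p = 0.040), 1.04 ± 0.31 for Sel1l (adjusted p = 0.039) and 0.65 ± 0.20 for Atf6 (adjusted p = 0.048). For Atf6 each drug alone was already lower and the combination was no lower than either. Ddit3 had a departure of 1.34 ± 0.42 (adjusted p = 0.053). Atf4 had one of 0.21 ± 0.18 (95% interval -0.15 to 0.56). Of the amino acid genes 0 of 9 departed, with 2 at an unadjusted p under 0.05, and the lowest departure was -0.55 ± 0.31 for Phgdh (adjusted p = 0.32). Of the 17 plasma cell markers, 7 departed, all above the sum, and the median log2 departure of the list was 4.74. The part of these markers in the departures of Atf5, Edem1, Herpud1, Sel1l and Atf6 was not tested.

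**Figure D4:**
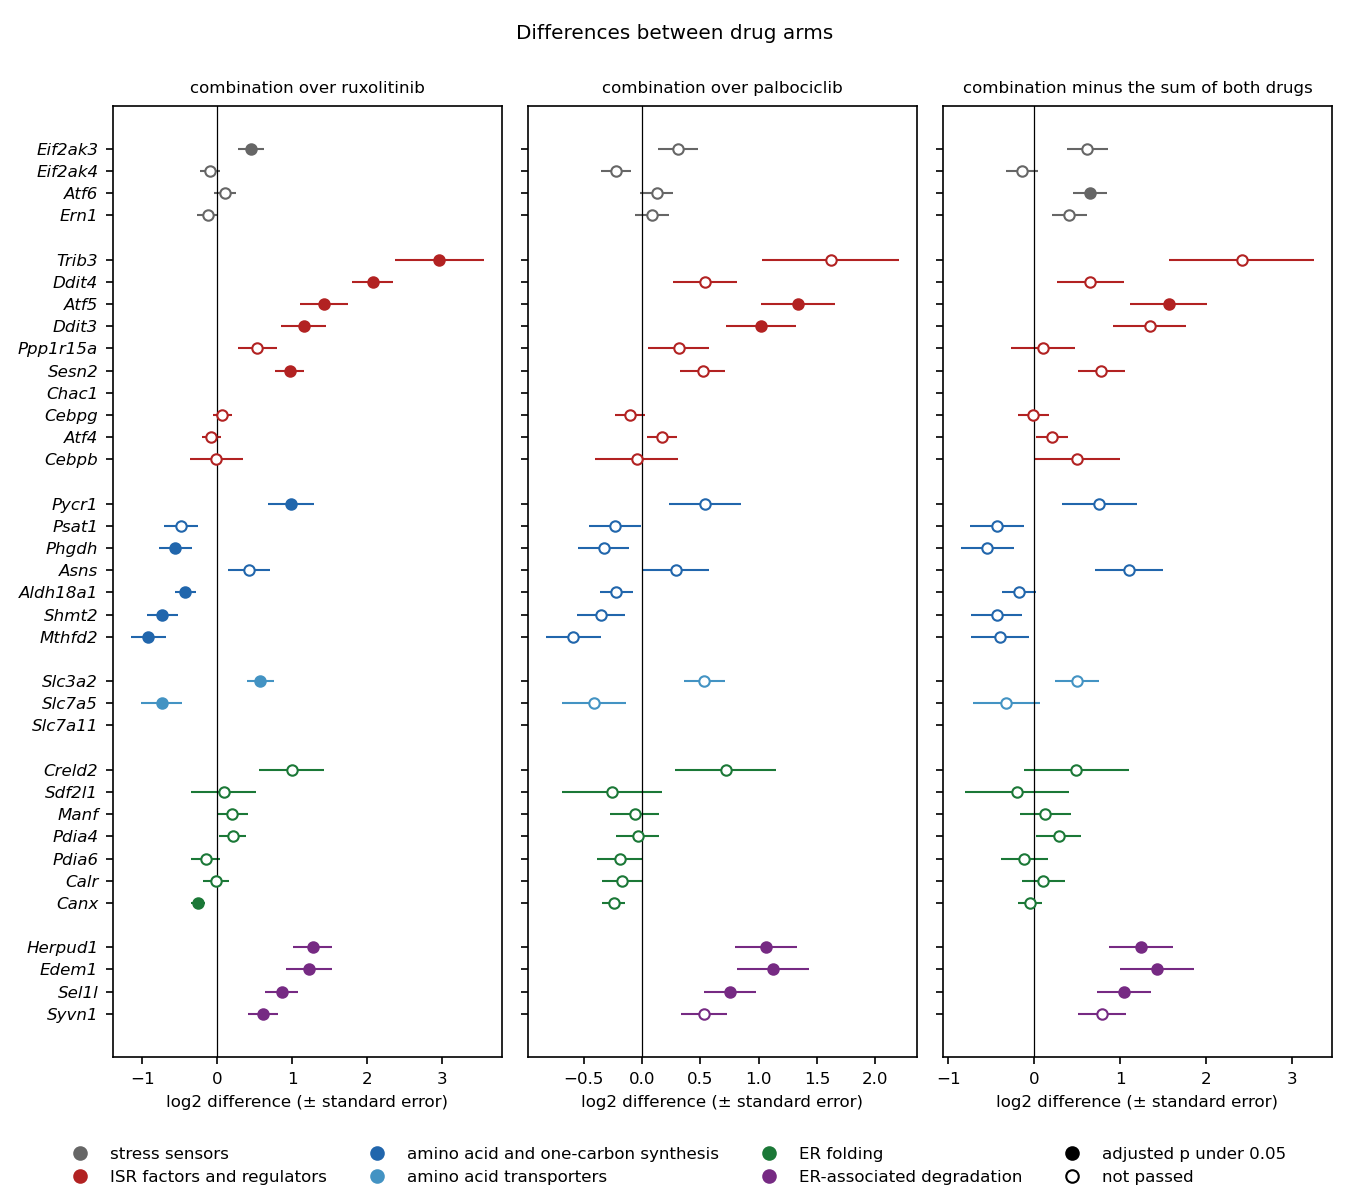
Log2 difference with its standard error (x axis) of 33 of the 35 genes: combination over ruxolitinib, combination over palbociclib, and combination minus the sum of both single-drug changes (3 libraries a group; Chac1 and Slc7a11 were too low to test). Filled points passed at an adjusted p under 0.05, and 18, 5 and 5 did so. All 4 ER degradation genes are filled in the first panel.

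Further genes of the same pathways were counted by list. The share of each that passed in the combination is read against the 30.2% of genes with a base mean of at least 50. Among those genes 9.74% passed in palbociclib and 3.45% in ruxolitinib. Some genes of these lists lie under that base mean. Of 32 other ATF4-type targets, 1 rose and 13 fell in the combination, 1 fell in palbociclib and 0 passed in ruxolitinib in the authors' deposited tables, where 0 had an unadjusted p under 0.05 in ruxolitinib. The share in the combination was 43.8%. The falls there include Atf3 and Cth, whose base means were only 5.31 and 11.3. The 12 tRNA synthetases among them, which charge tRNAs with amino acids, held 9 of the 13 falls, with a median log2 fold change of -0.52 in the combination. Eprs (glutamate and proline) fell by 0.68 ± 0.13 in the combination in the authors' deposited table (adjusted p = 9.6e-06), Aars (alanine) by 0.77 ± 0.18 (adjusted p = 0.00036) and Iars (isoleucine) by 0.87 ± 0.20 (adjusted p = 0.00038). In the authors' deposited table Nars (asparagine) was the one that fell in palbociclib, by 0.50 ± 0.11 (adjusted p = 0.00044). The gene that rose was Nupr1, a small stress-induced chromatin protein, named after its value was seen, by 2.03 ± 0.69 in the combination in the authors' deposited table (adjusted p = 0.020).

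Of 13 other genes of the eIF2 kinases and the eIF2 cycle, 1 rose and 5 fell in the combination (46.2%). Impact, an inhibitor of GCN2, rose in the authors' deposited table by 0.59 ± 0.12 (adjusted p = 2.1e-05), and Gcn1, an activator of GCN2, fell by 0.72 ± 0.19 (adjusted p = 0.0019). Eif2ak2, the kinase PKR, which senses double-stranded RNA, fell by 0.49 ± 0.14 there (adjusted p = 0.0062). Eif2ak1, the heme-regulated eIF2 kinase, fell in all 3 comparisons of the authors' deposited tables, by 0.31 ± 0.11 in the combination, 0.42 ± 0.11 in palbociclib and 0.41 ± 0.11 in ruxolitinib.

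Of 26 other ER folding and unfolded protein response genes, 5 rose and 3 fell in the combination, 1 fell in palbociclib and 2 fell in ruxolitinib. The share in the combination, 30.8%, is at the background. Dnajb9, a cochaperone of BiP and target of XBP1, rose in the authors' deposited table by 1.12 ± 0.23 in the combination (adjusted p = 7.3e-05). The ER oxidase Ero1l fell by 0.75 ± 0.16 in the combination, 0.56 ± 0.16 in palbociclib and 0.63 ± 0.16 in ruxolitinib in the authors' deposited tables, and Uggt1, the sensor of glycoprotein folding, fell by 0.52 ± 0.12 in the combination (adjusted p = 0.00025). The central chaperone Hspa5 (BiP), given here after its value was seen, had 16443 normalised reads in the combination, 17824 in palbociclib, 17019 in ruxolitinib and 20327 in vehicle, with a log2 fold change of -0.31 ± 0.26 in the combination in the authors' deposited table (adjusted p = 0.41).

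Of 23 other ER degradation and translocation genes, 6 rose and 3 fell in the combination (39.1%) and 1, Sec23b, fell in palbociclib. Derl3, a degradation component that plasma cells express highly, rose by 4.60 ± 0.83 in the combination in the authors' deposited table (adjusted p = 2.9e-06), with 695 normalised reads in the combination, 101 in palbociclib, 14.7 in ruxolitinib and 28.6 in vehicle. Selenok, an ER membrane selenoprotein, rose by 0.85 ± 0.21 there (adjusted p = 0.00093), and Spcs1, a subunit of the signal peptidase that trims secreted proteins, by 0.96 ± 0.25 (adjusted p = 0.0016). In ruxolitinib 0 of the 23 passed in the authors' deposited table, and 5 had an unadjusted p under 0.05.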

How the data were processed

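Polyadenylated RNA of sorted LSK cells was sequenced in 12 libraries of 4 groups. The submitters' processing notes list HISAT2 2.0.1, featureCounts 2.0.0, fastp 0.20.0, SAMtools 1.10 and DESeq2, with the build GRCm38 and no settings. The values used were 3 deposited tables of the authors' DESeq2 results. The deposited base mean is a signal, the mean of the authors' normalised counts over their fit. The log2 fold changes and standard errors are the authors' deposited estimates on the log2 scale. The deposited score is the Wald statistic. Its p-value, 2-sided, and the Benjamini-Hochberg adjusted p are also as the authors deposited them. Nothing was refitted, since values per library were not used here.

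Size factors were read from base means of genes with 1 read in 1 library, and showed that the authors' fit held 24 libraries, 12 of them not analysed here. Each gene's group levels and dispersion were solved from its 3 fold changes and errors (19043 of 19228 genes, 99%, met within 1e-06). Python 3.11.15, numpy 2.4.6, pandas 2.3.3 and scipy 1.17.1 were used. The steps were tested on simulated data, where the tests of differences between drug groups made more false calls than their nominal rate. Coordinates and exon lengths are those of GENCODE M21 (GRCm38), where 99.5% of the gene identifiers were found.

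The members, the other gene lists and the tests were chosen with earlier results of these data known. All members were named. From each other list and comparison, at most 3 called genes with the smallest adjusted p were planned to be named, and not every such gene is named. A gene named for a single comparison can also have its values given in others. Nupr1, Atf3, Cth and Hspa5 are named beyond that plan. The markers Jchain, Mzb1, Kit and Ly6a are named as planned, and no values are given for Ltf, which was also planned. Xbp1 and the T and NK cell markers were named after their values were seen. Alternatives changed the threshold, the filter on low counts, the scaling and the error of differences.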

Additional observations from a re-analysis of the deposited data

Results flagged for a closer look

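For 5 genes the effect of palbociclib differed with and without ruxolitinib, tested as the combination's departure from the summed single-drug changes (Wald test from solved group variances, Benjamini-Hochberg adjusted over 12077 genes). Atf5 had a departure of 1.56 on the log2 scale (adjusted p = 0.031), with a palbociclib change of 1.43 in the presence of ruxolitinib and of -0.14 without it. Edem1 had 1.42 (adjusted p = 0.042), with 1.23 in the presence of ruxolitinib and -0.20 without it. Herpud1 had 1.24 (adjusted p = 0.040), with 1.28 and 0.04 on the same terms. Sel1l had 1.04 (adjusted p = 0.039), with 0.86 and -0.18. Atf6 had 0.65 (adjusted p = 0.048), with 0.10 and -0.54. These are 5 of 33 genes tested, beside 2.79% of all genes. By the same test 7 of 17 plasma cell markers departed, all above the sum. The part of those markers in the departures of these 5 genes was not tested. None of the 5 passed when the deposited errors were taken as independent, with adjusted p from 0.267 to 0.312. Atf6 also did not pass among genes with a base mean of at least 10. On simulated data the tests of differences between drug groups made more false calls than their nominal rate.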

How the results depend on the processing

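At an adjusted p under 0.1 in place of 0.05, 2 members passed in ruxolitinib and 10 departed from the sum of both drugs. Under 0.01, 0 passed in ruxolitinib and 9 in the combination, of 18. With deposited errors taken as independent, a choice that ignores the shared vehicle libraries and so widens the error, 4 members differed between the combination and ruxolitinib, and 0 between the combination and palbociclib, 0 between palbociclib and ruxolitinib and 0 from the sum, against 18, 5, 1 and 5. Among members with a base mean of at least 500, the median log2 fold change in the combination was -0.026 for the 5 stress factors left, against 0.73, and -0.11 for the 2 transporters left, against -0.83, since fewer genes entered. Of the other summary alternatives 57 were rated as unchanged. For a count this meant a similar count, and for a median a shift smaller than the list's median standard error. The rating did not check the sign of a median. No value of a single gene changed sign where the gene had passed. For single genes 997 alternatives left the call as it was, 38 lost it and 12 gained it. At a base mean of at least 10, Phgdh against ruxolitinib (adjusted p = 0.050) and the departure of Atf6 (adjusted p = 0.053) no longer passed. No paired analysis was possible because the tables hold comparisons and no columns of single libraries, and leaving out libraries, another normalisation and a refit with edgeR were not run for the same reason. Depth limits Chac1 and Slc7a11, whose errors allow changes of several-fold.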
